A study of Rattus norvegicus with 9 samples.

Results

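The 154 fragments described here are the tRNA-derived small RNAs that stand on 2 to 4 rows of each deposited table, out of 530 fragments in all. Every table lists the same 2122 rows in the same order, and a fragment repeats with identical values. In all, 184 fragments stand on 2 to 4 rows. Of these, 27 were left out because they belong to 5 named sets of adjoining fragments, and 3 more were left out by identifier. Of the 154 members, 81 stand on 2 rows, 56 on 3 rows and 17 on 4 rows. The number of rows is a property of the listing and was not chosen from the counts. The fragments to leave out, by contrast, were chosen with earlier results of these data known. They still count among all fragments wherever members are set against all fragments below.

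The libraries hold small RNA of brain tissue around the injection site in the right globus pallidus, taken after saline perfusion at day 21 after surgery from male rats of the Sprague-Dawley strain, 3 libraries in each of 3 groups. ICH + BYHWD rats received 0.5 U of collagenase type VII, which breaks vessel walls and causes an intracerebral haemorrhage (ICH), and then Buyang Huanwu Decoction (BYHWD), a herbal preparation, in daily doses of 4.36 g/kg over 21 days. ICH rats received the same collagenase and, as far as the labels say, no decoction. Sham rats had the same operation with 2.5 μl of saline and no collagenase. All groups share the anaesthesia, the burr hole and the needle track. The labels name neither a batch nor the animal behind each library. The labelled tissue was not checked against marker genes, because the tables list tRNA fragments alone.

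Transfer RNAs bring amino acids to the ribosome, and nucleases can cut them into stable pieces. Cleavage in the anticodon loop gives the longer stress-induced fragments called tiRNAs, and in mammals angiogenin is an enzyme known to make them. Cuts elsewhere in the mature or precursor tRNA give the shorter tRFs, some of which have been described as binding Argonaute proteins or altering translation. Many tRNA genes are present in several identical or nearly identical copies, so that a short fragment often cannot be traced to 1 gene. The tables name fragments by identifier only and none is paired there with a sequence, its kind, or the tRNA it came from, so no role is given to any member.

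Library totals ran from 530827 to 1066616 tags, and listed fragments held 71.2 to 80.6% of them. The lowest count listed in a library was 76 to 149, so that a 0 was read as below a listing minimum of 134 to 152 TPM (the tag count as a rate of the library total, as deposited), not as proof that the tags were absent. The principal pattern described below sets ICH 2 apart at one end and sham 1 and 2 at the other, and sham 3 decides some counts. Each library is a mixture of cells, and fewer cells of a type and less RNA per cell cannot be told apart.

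The members stood in a fixed order in the listing. Taking fragments that follow each other in the same order at 2 or more places, 135 of the 154 members fell into 33 sets of 2 to 9 members, and 19 members were in none. Each of the 33 sets recurred whole, as an unbroken run in 1 order, at 2 to 4 places. The largest set, that of AS-tDR-000009, was a run of 9 fragments at 3 places. The set of AS-tDR-000584 was a run of 5 fragments at 4 places. These sets link members to members only, and 61 members stand in longer chains that also hold fragments that are no members. Linked through those, the sets of AS-tDR-000584 and AS-tDR-000600 join into a group with 11 members. The tables do not say what a row or a run represents, so sharing a set is a statement about the listing.

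The members were mostly of low to moderate abundance. The mean TPM over the 9 libraries had a median of 293 among members, of 182 among the 183 fragments on 1 row and of 742 among the 163 on 5 or more rows. Just inside and just outside the limits of the rule, it was 231 for the 81 members on 2 rows against 182 for fragments on 1 row, and 516 for the 17 members on 4 rows against 742 for the 23 fragments on 5 rows. Members made up 154 of 530 fragments but held 8.41 to 10.7% of the tags of a library. Fragments on 5 or more rows held 51.3 to 63.3%.

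The members' summed share of tags was 10.6, 10.1 and 10.7% in ICH + BYHWD 1, 2 and 3, 9.58, 8.41 and 10.2% in ICH 1, 2 and 3, and 8.82, 8.99 and 9.50% in sham 1, 2 and 3. It averaged 10.5% ± 0.34 in ICH + BYHWD, 9.40% ± 0.90 in ICH and 9.11% ± 0.36 in sham (SD, n = 3 each). Every ICH + BYHWD library was above every sham library, while ICH overlapped both other groups, and ICH 2 was the lowest of the 9. No test is given for this sum, since the members were chosen with earlier results of these data known. The share of all listed fragments was 74.7% ± 1.91 in ICH + BYHWD, 77.8% ± 4.20 in ICH and 73.2% ± 3.40 in sham, so the order of the groups differs from that of the members. Members on 2 rows held 3.50% ± 0.33 of the tags in ICH + BYHWD, 3.06% ± 0.46 in ICH and 2.85% ± 0.15 in sham. Members on 3 rows held 5.66% ± 0.13, 5.39% ± 0.32 and 5.16% ± 0.28, and members on 4 rows 1.31% ± 0.17, 0.95% ± 0.22 and 1.10% ± 0.10, in the same order of groups.

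**Figure D1:**
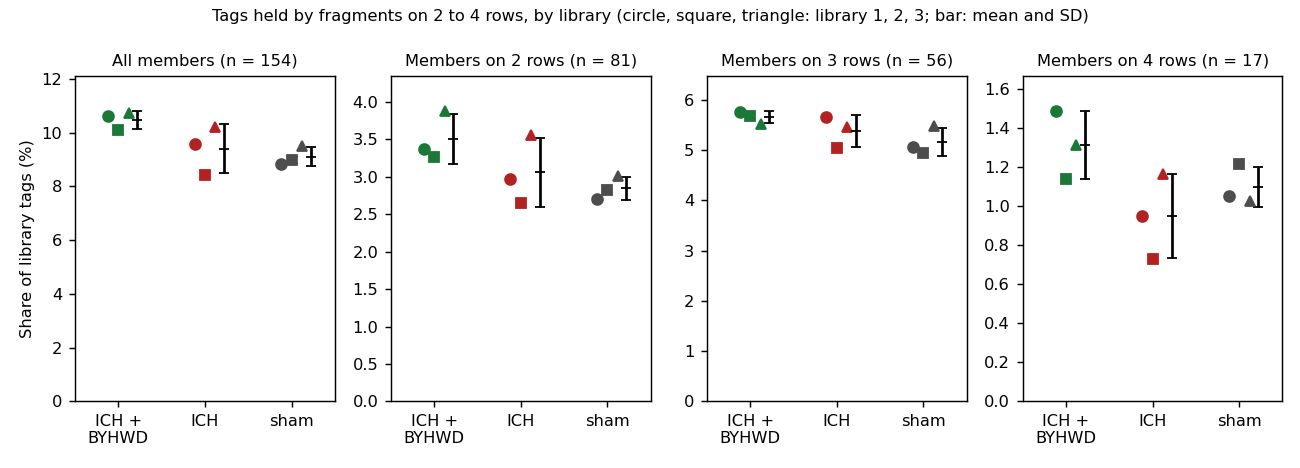
Share of library tags, in percent, held by all 154 members and by those on 2, 3 and 4 rows. Each symbol is 1 library and bars give the mean and SD of 3 libraries; for all members the ICH + BYHWD libraries lie between 10.1 and 10.7%, above the sham libraries at 8.82 to 9.50%, and ICH spans 8.41 to 10.2%.

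Listing itself varied between libraries. In all, 85 members were above 0 in all 9 libraries, 15 in 8, and 14 in 1 library only. A library listed 113 to 133 of the 154 members, with the most in ICH + BYHWD 3, which also held 5 of the 14 members listed in a single library. Members were listed in all 3 libraries of a group in 104 cases in ICH + BYHWD, 100 in ICH and 101 in sham. The low-count filter of the test kept 131 members, 46 of them with at least 1 library at 0, and left out the 23 members listed in 1 or 2 libraries.

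The 3 members at 0 in all libraries of 1 group and listed in all libraries of another were close to the listing minimum. This pattern was not counted over all fragments, so the 3 are a description only. AS-tDR-008333 was at 170, 146 and 180 TPM in ICH + BYHWD, at 0 in all 3 ICH libraries, and at 0, 187 and 145 TPM in sham. Its ICH + BYHWD mean of 165 ± 17.2 TPM was 1.19 times the lowest TPM listed in an ICH library, averaged over the 3. AS-tDR-007583 was at 0 in ICH + BYHWD, at 200, 316 and 223 TPM in ICH and at 196, 0 and 0 TPM in sham, and its ICH mean was 1.67 times the lowest TPM listed in ICH + BYHWD. AS-tDR-007918 was at 0, 0 and 191 TPM in ICH + BYHWD, at 139, 185 and 191 TPM in ICH and at 0 in sham, and its ICH mean was 1.16 times the lowest listed in sham. None of the 3 passed the edgeR test. DESeq2, another tool, called AS-tDR-007918 higher than sham in ICH (adjusted p = 8.13e-10) and in ICH + BYHWD (adjusted p = 4.84e-08). It called AS-tDR-008333 lower in ICH than in sham (adjusted p = 0.0183) and higher in ICH + BYHWD than in ICH (adjusted p = 0.0239). AS-tDR-007918 was at 0 in 5 libraries and AS-tDR-008333 in 4.

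The most abundant member, AS-tDR-001289 of the run of 9, was at 8062, 10534 and 5658 TPM in ICH + BYHWD, 9884, 7547 and 7302 TPM in ICH, and 8082, 7427 and 8376 TPM in sham. The groups overlapped, and the spread was widest in ICH + BYHWD. AS-tDR-007960, also among the 3 most abundant, was at 3251, 5116 and 3488 TPM in ICH + BYHWD, 4214, 3630 and 5511 TPM in ICH, and 4664, 4451 and 4244 TPM in sham. Its groups overlapped as well.

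In TPM, before any scaling factor, others of the 8 most abundant members were lower in ICH 2 than in any other library. AS-tDR-007958 was at 3144, 3150 and 5087 TPM in ICH + BYHWD, 2791, 1684 and 3914 TPM in ICH, and 3197, 4001 and 3204 TPM in sham. AS-tDR-001267 was at 5250, 3713 and 3113 TPM in ICH + BYHWD, 2566, 2144 and 3289 TPM in ICH, and 2568, 3147 and 2901 TPM in sham. AS-tDR-001271 was at 4797, 3839 and 2965 TPM, 2590, 2024 and 3255 TPM, and 2911, 3207 and 2901 TPM in the same order of groups. In each of these members the groups overlapped. AS-tDR-008148 was at 2454, 2761 and 3528 TPM in ICH + BYHWD, 2092, 1283 and 2936 TPM in ICH, and 2031, 2313 and 2182 TPM in sham. There the ICH + BYHWD libraries were all above the sham libraries in TPM, a separation given before the scaling factors of the test. With these factors the fitted difference on the log2 scale was 0.26 (SE 0.19, edgeR adjusted p = 0.997). For the 8 as a whole, edgeR gave 0 calls over the 3 comparisons of groups, and their lowest adjusted p was 0.507.

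**Figure D2:**
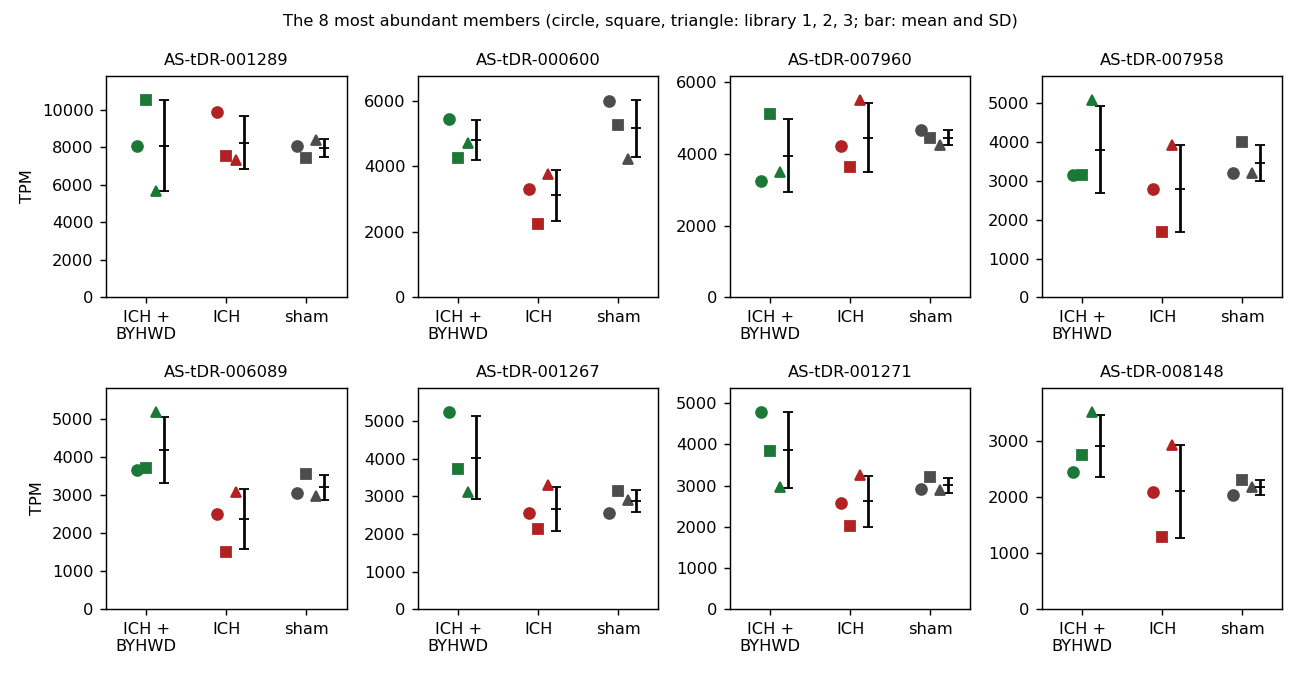
TPM of the 8 most abundant members in each library, with the mean and SD of 3 libraries per group; each vertical axis starts at 0. AS-tDR-001289 lies between 5658 and 10534 TPM, and AS-tDR-000600 is lower in every ICH library (2254 to 3780 TPM) than in any sham library (4235 to 5984 TPM).

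The first comparison asked which members differ between tissue around the haemorrhage and sham-operated tissue. AS-tDR-000600 was at 3316, 2254 and 3780 TPM in ICH and 5984, 5258 and 4235 TPM in sham. The groups did not overlap, and the fitted log2 ratio, the log2 fold change of edgeR, was -0.60 (SE 0.19), or 0.66-fold. AS-tDR-000584, which stands on 4 rows, was at 1225, 803 and 1406 TPM in ICH and 1883, 1880 and 1543 TPM in sham, again without overlap and with a fitted log2 ratio of -0.51 (SE 0.19). Among the 85 members above 0 throughout, AS-tDR-000584 was the one most like AS-tDR-000600 over the 9 libraries (Pearson r of log2 TPM 0.97, a description in which the points share libraries). They stand in different runs, which join only through fragments that are no members. Smaller differences were fitted for AS-tDR-007695, at 730, 549 and 1118 TPM in ICH and 1198, 1340 and 876 TPM in sham, and for AS-tDR-000064, at 324, 218 and 444 TPM in ICH and 419, 550 and 386 TPM in sham. Both of these overlapped between groups, with fitted log2 ratios of -0.41 (SE 0.20) and -0.35 (SE 0.17).

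On the other side, AS-tDR-000299 was at 623, 738 and 709 TPM in ICH and 265, 243 and 593 TPM in sham, a fitted log2 ratio of 1.09 (SE 0.38). AS-tDR-006095 was at 1497, 1698 and 1920 TPM in ICH and 990, 632 and 1328 TPM in sham, a fitted log2 ratio of 0.96 (SE 0.34). In both, every ICH library was above every sham library, and sham 3 was the sham library nearest to ICH. AS-tDR-000603 was at 2021, 2240 and 1504 TPM in ICH and 757, 685 and 1526 TPM in sham, a fitted log2 ratio of 1.18 (SE 0.45), with sham 3 above ICH 3. AS-tDR-000243 was at 565, 383 and 1039 TPM in ICH and 396, 505 and 446 TPM in sham, a fitted log2 ratio of 0.63 (SE 0.23), and its highest value was in ICH 3 alone. The adjusted p from edgeR was 0.507 for AS-tDR-000600, AS-tDR-000584, AS-tDR-000064, AS-tDR-000299, AS-tDR-006095, AS-tDR-000603 and AS-tDR-000243, and 0.508 for AS-tDR-007695, all above the threshold of 0.05.

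EdgeR's quasi-likelihood test on 131 members, with p adjusted over all 455 fragments and a threshold of 0.05, put 0 above sham and 0 below (0.0% of all fragments each way). At an unadjusted p under 0.05, 6 members were higher and 3 lower. That is 4.58 and 2.29% of the members tested, against 5.27 and 3.74% of all fragments tested. In TPM, the ICH libraries all exceeded the sham libraries in 8 members and all fell short of them in 4, that is 6.11 and 3.05% of members against 4.84 and 8.35% of all fragments. On the TMM scale of the test these were 14 and 11 members, or 10.7 and 8.40%, against 6.81 and 11.9%. The median log2 fold change of the members above 0 in all libraries was -0.0011, with quartiles of -0.19 and 0.35, and that of all 311 such fragments was -0.03. It was above 0 in 42 of these 85 members and below 0 in 43, where 46.9 and 53.1% of the 311 fragments were above and below.

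Other tools and single libraries changed the count. DESeq2 called 4 members higher and 1 lower (3.12 and 0.781% of 128 members, against 2.71 and 1.58% of all fragments with an adjusted p), and limma-voom called 0 and 0. Of the 5 DESeq2 calls, AS-tDR-000299 alone was above 0 in every library. Without sham 3, edgeR called 10 members higher and 0 lower, or 7.19 and 0.0% of 139 members against 8.35 and 0.835% of all fragments, and 8 of the 10 were above 0 in all libraries. AS-tDR-000299 then had a fitted log2 ratio of 1.50 (adjusted p = 0.00693) and AS-tDR-000603 one of 1.48 (adjusted p = 0.0308). At an unadjusted p under 0.05, leaving out sham 1 gave 0 of 138 members higher and 1 lower. Among all 473 fragments then tested, 9 were higher and 6 lower. Leaving out sham 2 gave 0 and 0 of 137 members, against 4 and 6 of 474 fragments. Without sham 3 there were 17 and 2 of 139 members, against 66 and 18 of 479 fragments. Leaving out ICH 1 gave 3 and 0 of 138 members, against 14 and 9 of 473 fragments. Without ICH 2 there were 1 and 1 of 139 members, against 5 and 8 of 473 fragments. Without ICH 3 there were 10 and 8 of 138 members, against 48 and 25 of 477 fragments. An ICH + BYHWD library enters this comparison through the filter, the scaling and the shared estimate of spread. Leaving 1 out gave 4 to 8 members higher and 1 to 2 lower. Over all fragments this gave 19 to 25 higher and 10 to 19 lower. Among the named members, the fitted log2 ratio of AS-tDR-000243 was 0.38 without ICH 3, that of AS-tDR-006095 was 0.60 without sham 2, and that of AS-tDR-007695 was -0.63 without sham 3. Without ICH 2 it was 0.85 for both AS-tDR-000299 and AS-tDR-000603, and -0.55 for AS-tDR-000600.

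**Figure D3:**
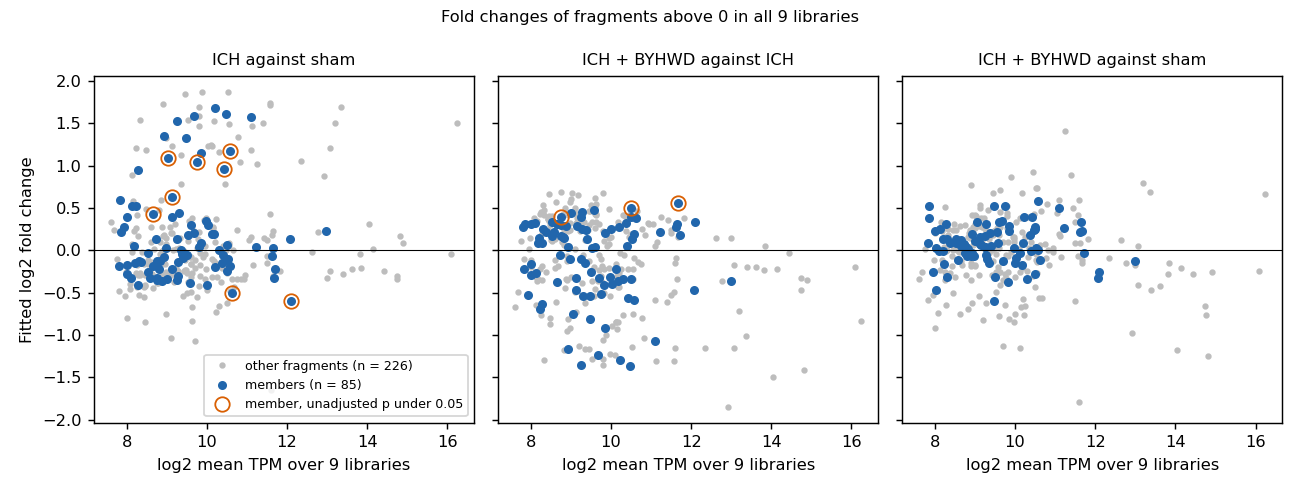
Fitted log2 fold change against log2 mean TPM for the 311 fragments above 0 in all 9 libraries, with the 85 members filled and the 226 others in grey. Rings mark members at an unadjusted p under 0.05; no fragment passed the adjusted threshold, and no member is ringed for ICH + BYHWD against sham.

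The second comparison asked how members differ with the decoction in rats with a haemorrhage. AS-tDR-006089 was at 3660, 3715 and 5198 TPM in ICH + BYHWD and 2499, 1518 and 3095 TPM in ICH, a fitted log2 ratio of 0.56 (SE 0.19), or 1.47-fold. AS-tDR-000118, of the same set, was at 1563, 1574 and 2423 TPM in ICH + BYHWD and 1118, 695 and 1468 TPM in ICH, a fitted log2 ratio of 0.50 (SE 0.21). AS-tDR-006286, also of that set, was at 1609, 1575 and 2326 TPM in ICH + BYHWD and 1212, 761 and 1503 TPM in ICH, a fitted log2 ratio of 0.39 (SE 0.19). In all 3 the groups did not overlap, with ICH + BYHWD 3 the highest library and ICH 2 the lowest. The remaining member of this run of 4, AS-tDR-006922, was at 1339, 1452 and 2055 TPM in ICH + BYHWD and 1080, 714 and 1419 TPM in ICH, with ICH + BYHWD 1 below ICH 3. This set, chosen for description after its values were seen, varied almost as 1 fragment, with r of log2 TPM from 0.976 to 0.992 over its 6 pairs.

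AS-tDR-000064 was at 492, 480 and 579 TPM in ICH + BYHWD and 324, 218 and 444 TPM in ICH, also without overlap, and had a fitted log2 ratio of 0.39 (SE 0.17). The members named on the lower side for a small p all overlapped between the groups. AS-tDR-000299, not among them, was lower in TPM in every ICH + BYHWD library (529, 512 and 529) than in any ICH library (623, 738 and 709). Its fitted log2 ratio was -0.75 (SE 0.38, edgeR adjusted p = 0.533). AS-tDR-007960 had a fitted log2 ratio of -0.46 (SE 0.21) with the overlapping values given above. AS-tDR-005847 was at 470, 421 and 341 TPM in ICH + BYHWD and 381, 355 and 580 TPM in ICH, a fitted log2 ratio of -0.37 (SE 0.18). AS-tDR-000243 was at 559, 652 and 459 TPM against 565, 383 and 1039 TPM in ICH, with a fitted log2 ratio of -0.47 (SE 0.23). AS-tDR-009993 was at 742, 1076 and 662 TPM in ICH + BYHWD and 848, 693 and 1191 TPM in ICH, with a fitted log2 ratio of -0.41 (SE 0.20). It was the member most like AS-tDR-007960 over the libraries (r 0.95, a description), in another run that joins it only through fragments that are no members. For each of the 8 members named for a small p, which leaves out AS-tDR-006922 and AS-tDR-000299, edgeR's adjusted p was 0.533, above the threshold.

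Single libraries moved these values. Without ICH 2 the fitted log2 ratio was 0.40 for AS-tDR-006089, 0.34 for AS-tDR-000118, 0.25 for AS-tDR-006286 and 0.26 for AS-tDR-000064. Without ICH + BYHWD 2 it was 0.64 for AS-tDR-006286 and 0.58 for AS-tDR-000064. On the lower side, leaving out ICH + BYHWD 3 gave -0.15 for AS-tDR-005847, -0.17 for AS-tDR-009993, -0.26 for AS-tDR-000243 and -0.27 for AS-tDR-007960. AS-tDR-000243 was at -0.23 without ICH 3, and AS-tDR-005847 at -0.22 without ICH + BYHWD 2. Leaving out any sham library, which changes the filter and the scaling, gave -0.31 for AS-tDR-000243, -0.25 for AS-tDR-007960, -0.21 for AS-tDR-009993 and -0.17 for AS-tDR-005847. With no scaling factors AS-tDR-005847 was at -0.05, AS-tDR-009993 at -0.10, AS-tDR-007960 at -0.13 and AS-tDR-000243 at -0.22, and the members named on the higher side lay between 0.69 and 0.86.

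Setting ICH + BYHWD against ICH, edgeR called 0 members in either direction, as over all fragments tested (0.0% each way). At an unadjusted p under 0.05, 4 members were higher and 1 lower, 3.05 and 0.763% of those tested against 4.40 and 2.20% of all fragments. In TPM, 18 members were higher in every ICH + BYHWD library than in any ICH library and 2 were lower, or 13.7 and 1.53% against 11.4 and 1.32% of all fragments. On the TMM scale the counts were 15 and 4, or 11.5 and 3.05%, against 10.8 and 3.74%. The members' shares thus lay near those of all fragments. The median log2 fold change was 0.05 over the 85 members above 0 in all libraries, with quartiles of -0.37 and 0.28, and -0.05 over all 311 such fragments. It was above 0 in 46 members and below 0 in 39, against 49.2 and 50.8% of the 311 fragments. DESeq2 called AS-tDR-008333 higher and 0 members lower (0.781 and 0.0% of 128 against 0.903 and 0.451% of all fragments), and limma-voom called 0 and 0. Leaving out ICH 3 gave 10 of 138 members higher and 5 lower at an unadjusted p under 0.05. Over all 477 fragments then tested, 33 were higher and 34 lower. Without ICH 1 there were 0 and 0 members, against 8 and 2 of all 473 fragments. Without ICH 2 there were 1 and 1 members, against 6 and 6 of all 473 fragments. Leaving out ICH + BYHWD 1, 2 or 3 gave 2 and 1, 4 and 3, or 6 and 1 members. Over all fragments these were 15 and 4, 23 and 21, or 24 and 4. Without a sham library 1 to 3 members were higher and 1 lower. Over all fragments 12 to 17 were higher and 4 to 10 lower. The comparison shares the ICH libraries with the first one.

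The median fold change against ICH depended on the scaling factors. The TMM factor of ICH 2 was 0.647, with 0.856 for ICH 1 and 1.18 for ICH 3, and 0.94 to 1.14 for the other 6 libraries. With no scaling factors the median log2 fold change of all fragments tested was -0.23 in the first comparison and 0.22 in the second, in place of -0.02 and -0.09. Between ICH + BYHWD and sham it was 0.19, in place of 0.06. Fold changes are to be read relative to these medians. The medians over the members tested moved with them, to -0.19, 0.27 and 0.21 in place of 0.03, 0.03 and 0.09.

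The last comparison asked whether members in treated rats still differed from sham. On the higher side by fitted value, AS-tDR-001267 had a fitted log2 ratio of 0.33 (SE 0.23) and AS-tDR-000602, at 900, 589 and 896 TPM in ICH + BYHWD and 664, 555 and 497 TPM in sham, one of 0.32 (SE 0.21). AS-tDR-006286 was at 1609, 1575 and 2326 TPM in ICH + BYHWD and 1231, 1454 and 1375 TPM in sham, which do not overlap, with a fitted log2 ratio of 0.28 (SE 0.19). On the lower side, AS-tDR-007464 was at 440, 901 and 455 TPM in ICH + BYHWD and 653, 923 and 870 TPM in sham, a fitted log2 ratio of -0.60 (SE 0.32). Here ICH + BYHWD 2 stood with the sham libraries. AS-tDR-007782 was at 678, 815 and 588 TPM in ICH + BYHWD and 891, 653 and 786 TPM in sham, and AS-tDR-009993 was at 1001, 950 and 948 TPM in sham. AS-tDR-009993, AS-tDR-007960 and AS-tDR-007782 had fitted log2 ratios of -0.38 (SE 0.20), -0.33 (SE 0.21) and -0.32 (SE 0.20), and their groups overlapped. Every one of these had an edgeR adjusted p of 0.997. Leaving out 1 library moved each of them by over 1.5 times. The fitted log2 ratio of AS-tDR-001267 was 0.08 without ICH + BYHWD 1, that of AS-tDR-007782 was -0.08 without sham 1, and those of AS-tDR-007960 and AS-tDR-009993 were both -0.14 without ICH + BYHWD 3. AS-tDR-000602 was at 0.20 without ICH + BYHWD 1, AS-tDR-007464 at -0.33 without ICH + BYHWD 3 and AS-tDR-006286 at 0.45 without ICH + BYHWD 2. AS-tDR-008148 was at 0.40 without sham 2.

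Against sham, edgeR called 0 members above and 0 below, with 0.0% of all fragments each way. At an unadjusted p under 0.05 there were also 0 and 0 members, while 0.22% of all fragments were higher and 3.96% lower. In TPM, 10 members lay above every sham library in every ICH + BYHWD library and 0 below, or 7.63 and 0.0% against 7.47 and 3.08% of all fragments. On the TMM scale they were 2 and 0 members, or 1.53 and 0.0%, against 1.32 and 7.03%. No member lay below sham in every library on either scale. All fragments include those left out of the members, and what to leave out was chosen with earlier results of these data known. The 0 is therefore not read as a property of the members. The median log2 fold change was 0.06 over the 85 members and 0.03 over the 311 fragments above 0 in all libraries. It was above 0 in 54 members and below 0 in 31, that is 63.5 and 36.5%, against 54.3 and 45.7% of the 311 fragments. DESeq2 called 3 members higher and 0 lower (2.34 and 0.0% of 128 against 1.35 and 0.677% of all fragments), each with a 0 in 5 or 6 libraries. Limma-voom called 0 and 0. Without sham 3, edgeR called 2 members higher and 0 lower, 1.44% of members against 3.55% of all fragments, both with a 0 in sham 1 and 2. At an unadjusted p under 0.05 there were then 15 and 1 of 139 members, against 52 and 11 of all 479 fragments. With any other library left out, at most 3 members were higher, without ICH + BYHWD 3 (8 of all 472 fragments). At most 2 members were lower, without ICH + BYHWD 2 (17 of all 479 fragments).

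Across the 3 groups at once, edgeR's F-test called 0 members, as of all fragments (0.0%). Unadjusted p was under 0.05 for 2 members, AS-tDR-000600 and AS-tDR-000299, or 1.53% of those tested against 6.37% of all fragments, and the members' lowest adjusted p was 0.608. Without sham 3 the test called 4 of 139 members, and its count over all fragments is not given here. Unadjusted p was then under 0.05 for 16 members, against 72 of all 479 fragments. Leaving out any other library gave 0 to 7 members at that level, against 7 to 52 of all fragments.

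Libraries of 1 group differed from each other. The first principal component of log2 TPM, taken over the 85 members above 0 throughout, held 57.9% of the variance. Its scores were 0.37, -1.79 and -0.95 for ICH + BYHWD 1, 2 and 3, 3.29, 6.82 and -1.56 for ICH 1, 2 and 3, and -3.21, -4.73 and 1.76 for sham 1, 2 and 3. ICH 1 and 2 and sham 1 and 2 stood at opposite ends, ICH 3 stood on the sham side and sham 3 on the ICH side. Of the 85 members, 18 loaded with ICH 2 and 67 against it. In TPM, ICH 2 was the lowest library for 52 members (61.2%) and the highest for 10 (11.8%). Among the 226 other fragments above 0 throughout it was the lowest for 58.0% and the highest for 17.7%. The component and these ranks were taken from TPM without the TMM factors, which were 0.647 for ICH 2 and 0.856 for ICH 1. Such factors raise the values of ICH 2 against other libraries on the scale of the test, where the ranks were not taken. The most abundant fragment of the series, AS-tDR-000052, which is no member, held 8.10, 5.88 and 10.3% of the tags in ICH + BYHWD, 12.0, 14.2 and 5.76% in ICH, and 2.27 and 9.08% in sham 1 and 3, with sham 2 the lowest of all. Its part in the members' pattern was not tested.

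**Figure D4:**
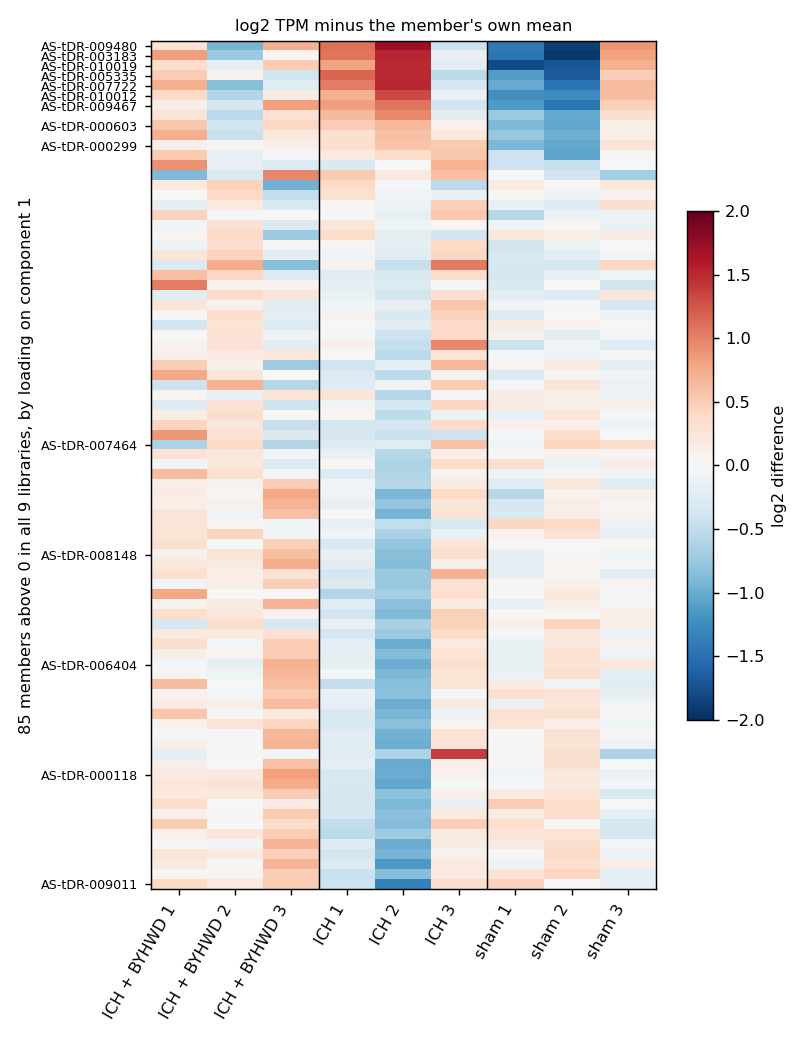
Heat map of log2 TPM minus each member's own mean for the 85 members above 0 in all 9 libraries (rows, ordered by loading on the first component; some are labelled) in each library (columns, with lines between groups). The rows at the top are high in ICH 1, ICH 2 and sham 3 and low in sham 1 and 2, and most rows below are lowest in ICH 2.

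Among the 85 members above 0 throughout, those that varied most followed this component. This follows from how the component is made, since members that vary more weigh more in it. AS-tDR-009480 was at 1289, 563 and 1747 TPM in ICH + BYHWD, 2299, 3492 and 793 TPM in ICH, and 402, 289 and 1969 TPM in sham, a coefficient of variation over the 9 libraries of 74.0%. AS-tDR-003183 was at 1132, 376 and 650 TPM, 1319, 1822 and 567 TPM, and 231, 166 and 1100 TPM in the same order of groups (68.2%). AS-tDR-007722 was at 813, 275 and 419 TPM, 1004, 1409 and 391 TPM, and 246, 179 and 765 TPM (67.8%). In each, ICH 2 was the highest library and sham 2 the lowest, and sham 3 lay above ICH 3. Their fitted log2 ratios for ICH against sham were 1.61, 1.58 and 1.53, with SEs of 0.93, 0.87 and 0.79, so that folds near 3 were within the spread of the libraries. Without sham 3, AS-tDR-009480 and AS-tDR-003183 passed, at adjusted p values of 0.0379 and 0.0305.

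The members steadiest in TPM, before any scaling factor, were of moderate level. AS-tDR-001333 was at 991, 1278 and 847 TPM in ICH + BYHWD, 1229, 977 and 1063 TPM in ICH, and 986, 1066 and 942 TPM in sham, a coefficient of variation of 13.1%. AS-tDR-000251, at 452, 469 and 495 TPM in ICH + BYHWD, 421, 291 and 501 TPM in ICH and 408, 386 and 409 TPM in sham, had 15.2%. AS-tDR-001391, at 589, 562 and 465 TPM, 435, 325 and 527 TPM, and 483, 512 and 490 TPM in the same order, had 15.8%. The last 2 were lowest in ICH 2 in TPM. With the TMM factors of the test, AS-tDR-001333 was not flat between groups. Its fitted log2 ratio was 0.30 (SE 0.22) for ICH against sham and -0.40 (SE 0.22) for ICH + BYHWD against ICH. The median coefficient of variation was 26.7% over the 85 members, 28.4% over the 72 fragments on 1 row above 0 throughout and 28.3% over the 126 such fragments on 5 or more rows.

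Members of the same run were somewhat more alike over the libraries than members of different runs. The median r of log2 TPM was 0.53 over 128 pairs of members in the same set, with quartiles of 0.13 and 0.89. It was 0.30 over 3442 pairs in different sets, with quartiles of -0.13 and 0.69. These values describe pairs that share the same 9 libraries and many members, and carry no test.

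The run of 9 held members that went different ways. AS-tDR-001289, AS-tDR-007547 and AS-tDR-007548 were lowest in ICH + BYHWD 3, and AS-tDR-007548 was the member most like AS-tDR-001289 (r 0.91, a description). AS-tDR-003183, AS-tDR-005335 and AS-tDR-007722 were highest in ICH 2. AS-tDR-005335 was at 1365, 1003 and 724 TPM in ICH + BYHWD, 2148, 2696 and 659 TPM in ICH, and 442, 299 and 1345 TPM in sham. Over the 28 pairs of its 8 members above 0 throughout, r ran from -0.40 to 0.98, with a median of 0.15. AS-tDR-007549 stood apart in 1 library, at 220, 284 and 0 TPM in ICH + BYHWD, 263, 184 and 189 TPM in ICH and 1319, 187 and 251 TPM in sham. The value in sham 1 was 4.65 times the next highest, the largest such ratio among members listed in 2 or more libraries. The summed share of the set was 1.46% ± 0.41 in ICH + BYHWD, 1.63% ± 0.33 in ICH and 1.42% ± 0.19 in sham (SD, n = 3 each).

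The other large sets were low. The set of AS-tDR-000376, a run of 8, held 0.345% ± 0.01 of the tags in ICH + BYHWD, 0.322% ± 0.07 in ICH and 0.291% ± 0.03 in sham. Its 6 members above 0 throughout had a median r of 0.60. AS-tDR-009581, a member of this set, was listed at 161 and 255 TPM in ICH 1 and 2 and at 0 in the other 7 libraries, and was not tested. The set of AS-tDR-006973, also of 8, held 0.178% ± 0.03 in ICH + BYHWD, 0.082% ± 0.06 in ICH and 0.144% ± 0.05 in sham. In ICH 1, 2 and 3 it held 0.069, 0.032 and 0.144%, and ICH 2 was the lowest of the 9 libraries. Of its members, AS-tDR-007981 alone was above 0 in all libraries, at 283, 323 and 361 TPM in ICH + BYHWD, 214, 149 and 276 TPM in ICH, and 324, 294 and 251 TPM in sham. In ICH 2 the other members, apart from AS-tDR-007435 at 167 TPM, were at 0, including AS-tDR-008333, described above for its zeros in ICH. In TPM, ICH 2 is the library in which most members above 0 throughout were lowest.

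**Figure D5:**
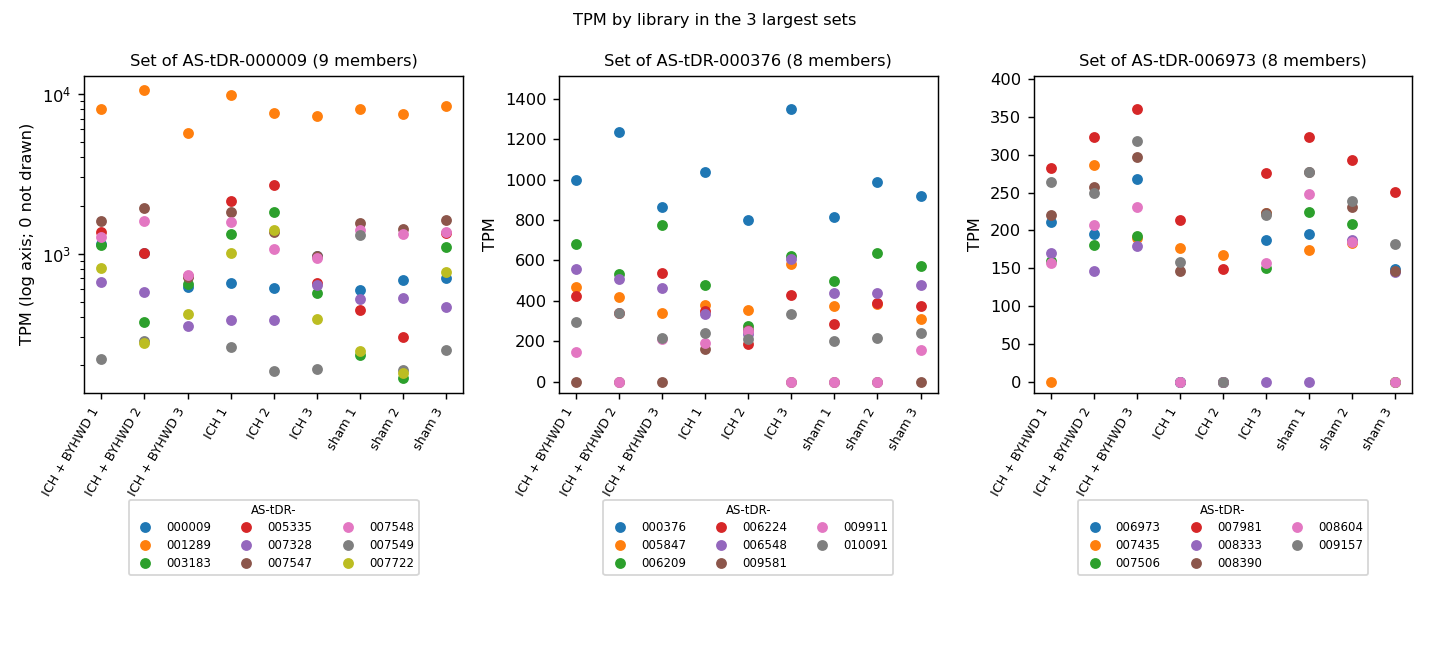
TPM in each library of the members of the 3 largest sets, 1 colour per member; the left panel has a log axis and leaves out a value of 0, and equal values overlie each other. In the run of 9, AS-tDR-001289 stays at or above 5658 TPM while AS-tDR-007722 ranges from 179 to 1409 TPM, and in the set of AS-tDR-006973 most members are at 0 in ICH 2.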

How the data were processed

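Small RNA libraries of 3 groups were compared, and p-values measure the spread between libraries, which the labels do not tie to separate rats outright. Per the labels' protocols, RNA modifications that block ligation or reverse transcription were removed and inserts of 15 to 50 nt were selected. FastQC, cutadapt and Novoalign 2.07.11 are named, per the submitters' processing notes, beside hg19, a human build. How tags were counted is not stated there. The deposited tag counts are whole numbers without normalization. The other column, headed TPM per the file headers, is the count over 1 library total. Because rows repeat it was handled as another unit than strict TPM. It gave the library totals and printed levels.

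One row per fragment was kept. Counts of all 530 fragments were fitted with edgeR 4.0.16 (R 4.3.3): TMM factors, filterByExpr (minimum count 10), robust quasi-likelihood F-tests over 9 libraries, and Benjamini-Hochberg adjustment over 455 fragments with a threshold of 0.05. SEs derive from the fold change and F. Alternatives used DESeq2 1.42.0, limma 3.58.1, other scalings and left-out libraries. The steps were tested on simulated data. The members and lists were chosen with earlier results of these data known. Named members had the smallest p (4 each way per comparison, above 0 in all libraries), the highest level (8), extreme variation (3 each), presence in 1 group against 0 in another, or the 3 largest sets (ties went to the set with more tags).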

Additional observations from a re-analysis of the deposited data

How the results depend on the processing

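All alternatives were marked as planned, but earlier results of these data were known when the members and lists were chosen. Members past the adjusted threshold numbered 0 higher and 0 lower in each comparison, and stayed at 0 with RLE scaling, no scaling factors, recovered library totals, no low-count filter, zeros at the lowest listed count, fragments above 0 in all libraries, limma-voom, row sums and the 6 libraries compared. With DESeq2, ICH against sham had 4 members higher and 1 lower, ICH + BYHWD against ICH had 1 higher, and ICH + BYHWD against sham had 3 higher. With 1 library left out, members higher in ICH than sham numbered 0 to 10, members higher in ICH + BYHWD than sham 0 to 2, and members with any difference 0 to 4. Each highest count came without sham 3, and the cause was not tested. Among 456 alternative values for 24 named fold changes, 0 reversed and 3 passed the threshold. These members were picked for a small p in the same libraries, so kept directions are no separate evidence. The summed share of tags was 14.0% in ICH + BYHWD, 12.1% in ICH and 12.4% in sham as a share of listed counts. There ICH lay below sham, where as a share of library totals it lay above (9.40 against 9.11%). Listed fragments held 77.8% of the tags in ICH and 73.2% in sham. With all fragments on 2 to 4 rows the summed share was 14.8%, 13.5% and 13.4%. The higher levels follow from the smaller denominator and the larger list. With 1 library left out the members' share of library totals was 10.4 to 10.7% in ICH + BYHWD, 9.0 to 9.89% in ICH and 8.91 to 9.25% in sham. With members above 0 in all libraries alone it was 9.60% in ICH + BYHWD, 8.50% in ICH and 8.35% in sham. No paired analysis was possible because the labels number no replicates, and the library numbers used here follow the order of deposit and pair nothing. Values near 134 to 152 TPM lie at the listing minimum, which limits them.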
